A study of Mus musculus with 4 samples.

Results

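Macrophage and myeloid genes were followed in mammary tissue of mice labelled STAT5 KO or STAT5 WT, on 2 arrays per genotype. The members are 40 genes of macrophages, monocytes and related cells, listed by name, and all 40 had a probe set with that symbol, among 18193 named genes on the array. Each gene was read from its brightest probe set, the one with the highest mean log2 signal over the 4 arrays. The members were split into Cd163, Mrc1 and Lyve1, 3 genes of macrophages that reside in tissue, and the other 37. The list and the split were drawn up with earlier results of these data known.

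The tissue came from 2 mice of each genotype, collected at 6 days after an event that the design text does not name. STAT5 is a transcription factor that prolactin activates in mammary epithelium and that several cytokine receptors activate in blood cells. The labels do not give which of the neighbouring genes Stat5a and Stat5b was deleted, whether the deletion covered the whole animal or only some cells, or the strain, sex or age of the mice. Total RNA of whole tissue was measured, so fewer cells of a type and less RNA per cell cannot be told apart.

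Macrophages of the mammary gland sit in the fat and connective tissue and along the ducts, where they clear dying cells and take part in duct growth. They arise from embryonic precursors or from blood monocytes, and they need the growth factor CSF1, which acts through its receptor CSF1R. Monocytes are drawn into tissue by the chemokine CCL2 through the receptor CCR2. The transcription factor PU.1, the product of Spi1, sets the identity of the whole lineage.

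Values are MAS5 signals, the brightness of a probe set in arbitrary units on a linear scale, scaled to the same trimmed mean on every array. Signals of different probe sets cannot be ranked against each other. Differences are KO minus WT on the scale log2(signal + 16), tested with limma across 22519 probe sets, and a gene passed when its p, adjusted by Benjamini-Hochberg over all of them, was below 0.05. Of 40 members, 39 were bright enough to be tested, with a mean log2 value of at least 7.15. Marco, a scavenger receptor of some tissue macrophages, was not tested, with signals of 4.62 and 10.5 on the KO arrays and 8.28 and 22.5 on the WT arrays. Cx3cr1 passed this limit with its KO mean below it, and Ccl2 with its WT mean below it.

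The arrays correlated across tested probe sets, which are not independent replicates, with r of 0.973 between the KO arrays, 0.938 to 0.952 between genotypes and 0.977 between the WT arrays. Stat5a had signals of 1836 and 861 on the KO arrays and 2307 and 2061 on the WT arrays, and Stat5b had 1069 and 712 on the KO arrays and 1522 and 1506 on the WT arrays. Both genes lay lower on both KO arrays without passing (log2 differences -0.79 and -0.78, limma adjusted p = 0.246 and 0.102). A probe set outside the deleted part would not check the genotype. All 14 epithelial markers of the labelled tissue were bright enough to be tested.

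Of the 39 tested members, 1 rose in KO tissue and 0 fell. The one that rose was Lyve1, which encodes a receptor for hyaluronan. Over all 11360 tested genes 1.21% rose and 1.36% fell, so the count of members is close to the background. At an unadjusted p below 0.05, 14 members were higher (35.9%) and 3 lower (7.69%), against 10.4% and 10.8% of all tested genes. Both KO arrays lay above both WT arrays for 17 members (43.6%), against 26.2% of all tested genes, and below them for 5 (12.8%), against 27.5%. The median log2 difference of the tested members was 0.21, against -0.01 over all tested genes, and 28 of 39 were above 0 (71.8%, against 48.5%). Differences of 0.5 or more were seen in 13 of 39 members upward and in 5 of 39 downward, against 8.06% and 9.01% of all tested genes.

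**Figure D1:**
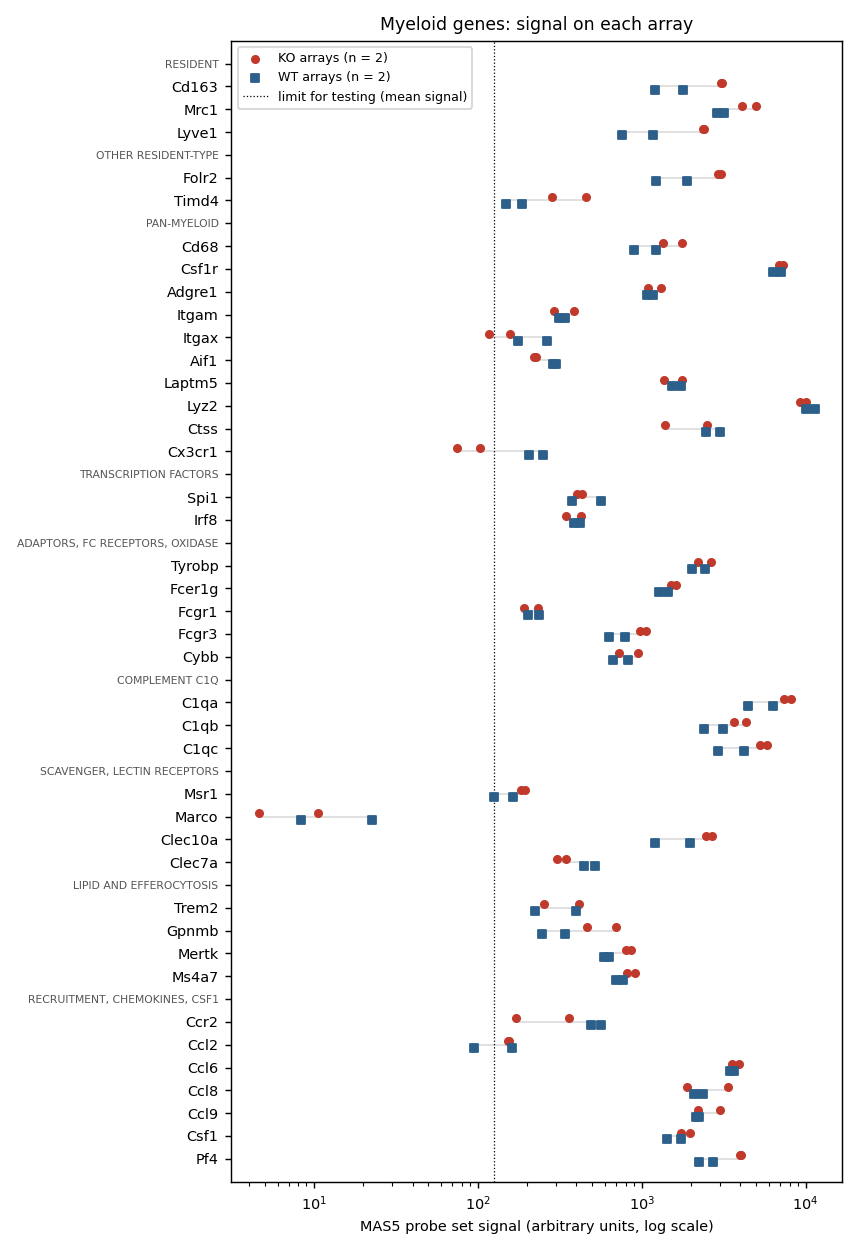
Signal of each of the 40 genes on each array, on a log axis in arbitrary units, with KO arrays as red circles and WT arrays as blue squares (n = 2 each), grouped by role; the dotted line is the limit for testing, which applies to the mean log2 value over the 4 arrays. Lyve1 stands at 2410 and 2370 on the KO arrays, above 1168 and 760 on the WT arrays, whereas the pairs overlap for Adgre1 and for the brightest probe set of Csf1r.

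The resident genes included the largest positive differences among the members. Lyve1 had signals of 2410 and 2370 on the KO arrays, against 1168 and 760 on the WT arrays. The KO arrays were nearly equal and both were above the brighter WT array. The mean was 2390 ± 28.5 in KO and 964 ± 288 in WT tissue (SD, n = 2 each), 2.48-fold, with a log2 difference of 1.33 ± 0.21 (SE, limma adjusted p = 0.0378). Its dimmer probe set also rose, by 1.21 (limma adjusted p = 0.0337), with signals of 1274 and 1126 on the KO arrays and 583 and 446 on the WT arrays. Of all tested genes, 0.77% had a larger positive difference than the brighter one. The call of that probe set was lost with no filter (limma adjusted p = 0.112) and with no trend in the variance (0.0610). It was also lost after centring on epithelial markers (limma adjusted p = 0.0970), where the difference was larger, at 1.63. Without WT replicate 2 the difference was smaller, at 1.02, and the call was lost.

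Cd163, the scavenger receptor that takes up haemoglobin bound to haptoglobin, had signals of 3099 and 3064 on the KO arrays and 1781 and 1203 on the WT arrays. It lay just short of the threshold at a log2 difference of 1.07 ± 0.20 (SE) (limma adjusted p = 0.0507). Mrc1, the mannose receptor CD206, had 4953 and 4081 on the KO arrays and 3182 and 2863 on the WT arrays. Its log2 difference was 0.57 ± 0.14 (SE) and did not pass (limma adjusted p = 0.0950). For both genes the genotypes did not overlap. The KO mean was 2.06-fold the WT mean for Cd163 and 1.49-fold for Mrc1. Without WT replicate 1, Cd163 passed at 1.34 (limma adjusted p = 0.0443), and without KO replicate 2 at 1.07 (0.0451). It did not pass with no filter (limma adjusted p = 0.134). Nor did it after centring on epithelial markers (limma adjusted p = 0.316), where the difference was larger, at 1.36. Without WT replicate 2 the difference was smaller, at 0.79, and Cd163 did not pass.

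Folr2 and Timd4, markers often read with Lyve1 on long-lived resident macrophages, stood in the same range. Timd4, a receptor for phosphatidylserine on dying cells, had signals of 460 and 285 on the KO arrays and 185 and 148 on the WT arrays, a log2 difference of 1.06 ± 0.26 (SE) (limma adjusted p = 0.0924). Folr2, a folate receptor of macrophages given here after its values were seen, had 3059 and 2925 on the KO arrays and 1888 and 1225 on the WT arrays, a log2 difference of 0.97 ± 0.21 (SE) (adjusted p = 0.0675). Neither passed, and in both the lower KO array lay above the higher WT array. Timd4 passed without KO replicate 2 (1.39, limma adjusted p = 0.0247) and stood at 0.73 without KO replicate 1 (0.223). Folr2 passed without WT replicate 1 (1.28, limma adjusted p = 0.0493) and stood at 0.66 without WT replicate 2 (0.232). Lyve1, Cd163, Timd4 and Folr2 held ranks 1 to 4 of the 39 tested members by log2 difference, and Mrc1 held rank 9.

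The median log2 difference of the 3 resident genes was 1.07, and that of the other 36 tested members was 0.17, a gap of 0.89. The gap was 0.82 on KO replicate 1 and 0.97 on KO replicate 2, each set against the WT mean. The WT arrays also differed in it, by 0.39, since all 3 resident genes were higher on WT replicate 1 than on WT replicate 2. The gap between the genotypes was 1.12 without WT replicate 1 and 0.68 without WT replicate 2. Since 2 arrays against 2 cannot give an exact permutation p below 0.33, the gap is a description with no test.

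**Figure D2:**
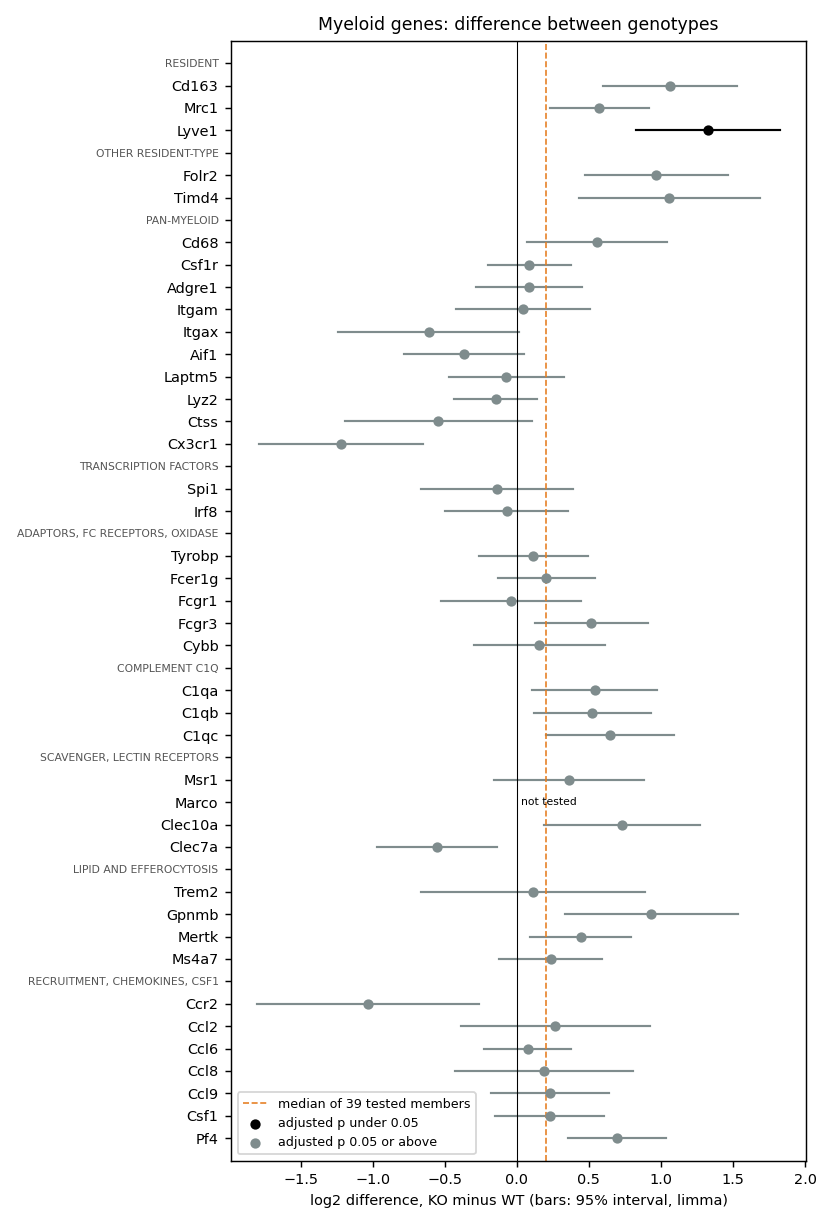
Log2 difference, KO minus WT, of the 39 tested genes with its 95% interval from limma, by role; black marks an adjusted p below 0.05 and the dashed line is the median of the tested members, 0.21. Lyve1 is the black point at 1.33, and Cx3cr1 at -1.22 and Ccr2 at -1.03 lie lowest.

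Lyve1 is also a marker of lymphatic vessels, and the other markers of those vessels split in direction. Of 5 lymphatic markers on the array, Flt4, Pdpn and Reln were tested and 0 passed in either direction (1 had an unadjusted p below 0.05, Reln, lower in KO at -1.42, limma adjusted p = 0.107). Their summed signal was 3070 and 3489 on the KO arrays and 3617 and 4731 on the WT arrays. Prox1, the defining transcription factor of lymphatic endothelium, had signals of only 15.9 and 3.21 on the KO arrays and 13.1 and 34.1 on the WT arrays, below the limit for testing. Flt4, the lymphatic receptor VEGFR3, had 377 and 337 on the KO arrays and 202 and 299 on the WT arrays (log2 difference 0.51, limma adjusted p = 0.275). Mmrn1, also too dim to test, had 121 and 121 on the KO arrays and 75.1 and 83.0 on the WT arrays.

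Genes grouped here as pan-myeloid split in direction, and not all of them mark the macrophage lineage as a whole. Of 10 pan-myeloid members, 0 passed in limma (at an unadjusted p below 0.05, 1 higher and 1 lower), 4 had a log2 difference above 0 and 6 below, and the median was -0.11. The lowest were Cx3cr1, Itgax and Ctss, at -1.22, -0.61 and -0.54, whose signals are given further below. Aif1 had a log2 difference of -0.37 (limma adjusted p = 0.305), with both KO arrays below both WT arrays. Csf1r, the CSF1 receptor, named here after its values were seen, had signals of 7279 and 6897 on the KO arrays and 7047 and 6303 on the WT arrays. The genotypes overlapped, with a log2 difference of 0.09 and a 95% interval of -0.20 to 0.37 (limma adjusted p = 0.743). Its 2 dimmer probe sets gave 0.25 and 0.36 (adjusted p = 0.3326 and 0.195), with both KO arrays above both WT arrays in each, and none of the 3 passed. Adgre1, which encodes F4/80, had a difference of 0.08 and an interval of -0.28 to 0.45. Those of Itgam (CD11b), Laptm5 and Lyz2 (lysozyme) were 0.04, -0.07 and -0.15. The dimmer tested probe sets of Laptm5 gave 0.23, 0.31 and 0.61. None of these passed, and in each both KO arrays lay above both WT arrays. By brightest probe sets, Cd68 was the one pan-myeloid member with both KO arrays above both WT arrays. Cd68, a lysosomal glycoprotein of phagocytes, stood at 1755 and 1356 against 1222 and 892 (log2 difference 0.56, limma adjusted p = 0.205).

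The brightest probe sets of the 2 lineage transcription factors overlapped between genotypes, and neither had an unadjusted p below 0.05. Spi1, which encodes PU.1, had signals of 404 and 431 on the KO arrays and 567 and 374 on the WT arrays, a log2 difference of -0.14 ± 0.22 (SE) (limma adjusted p = 0.787). The KO arrays lay between the WT arrays. Irf8, a partner of PU.1 in monocyte and dendritic cell development, had a difference of -0.07, and -0.42 for its dimmer probe set, and neither passed. The dimmer one did not overlap, at 281 and 177 on the KO arrays and 323 and 285 on the WT arrays.

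Cx3cr1 and Ccr2, chemokine receptors of monocytes, stood at the low end of the list. Cx3cr1, the receptor of fractalkine, had signals of 103 and 75.01 on the KO arrays and 206 and 249 on the WT arrays. Its KO mean was 39.3% of the WT mean, with a log2 difference of -1.22 ± 0.24 (SE) and no call (limma adjusted p = 0.0567). Ccr2 had 362 and 171 on the KO arrays and 490 and 566 on the WT arrays, a log2 difference of -1.03 ± 0.32 (SE) (adjusted p = 0.150). In both genes the KO arrays lay below the WT arrays. Without KO replicate 1 both fell, Cx3cr1 by 1.41 (limma adjusted p = 0.0426) and Ccr2 by 1.54 (adjusted p = 0.0155). Without KO replicate 2 neither passed, at -1.02 for Cx3cr1 (limma adjusted p = 0.0807) and -0.52 for Ccr2 (adjusted p = 0.218). The Ccr2 probe sets disagreed. The second gave -0.92 and the third 0.33, where the WT arrays themselves stood at 303 and 88.8.

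The other members below 0 by 0.5 or more were Itgax, Ctss and Clec7a. Itgax, the CD11c integrin of dendritic cells and some macrophages, had signals of 117 and 156 on the KO arrays and 175 and 263 on the WT arrays (log2 difference -0.61, limma adjusted p = 0.266). Ctss, the protease cathepsin S, had 1384 and 2502 on the KO arrays and 3018 and 2456 on the WT arrays. The KO arrays were further apart than the genotypes, and without KO replicate 2 Ctss fell by 0.97 (limma adjusted p = 0.0289), against -0.54 and no call with all arrays (adjusted p = 0.331). Without KO replicate 1 its difference was -0.12 (limma adjusted p = 0.821). Clec7a, the receptor for fungal glucans called dectin-1, had a log2 difference of -0.55 (limma adjusted p = 0.153), with both KO arrays lower.

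Markers of B and T cells lay low on the array. Of 8 such markers on the array, 1 was bright enough to be tested, Cd3e, and it did not pass (log2 difference -1.21, SE 0.90, limma adjusted p = 0.514), with the KO arrays at 28.1 and 353 and the WT arrays at 192 and 404. Their summed signal was 418 and 741 on the KO arrays and 782 and 1281 on the WT arrays. Cx3cr1 and Ccr2 are also made by some lymphocytes, and the part of lymphocytes in their values was not tested.

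**Figure D3:**
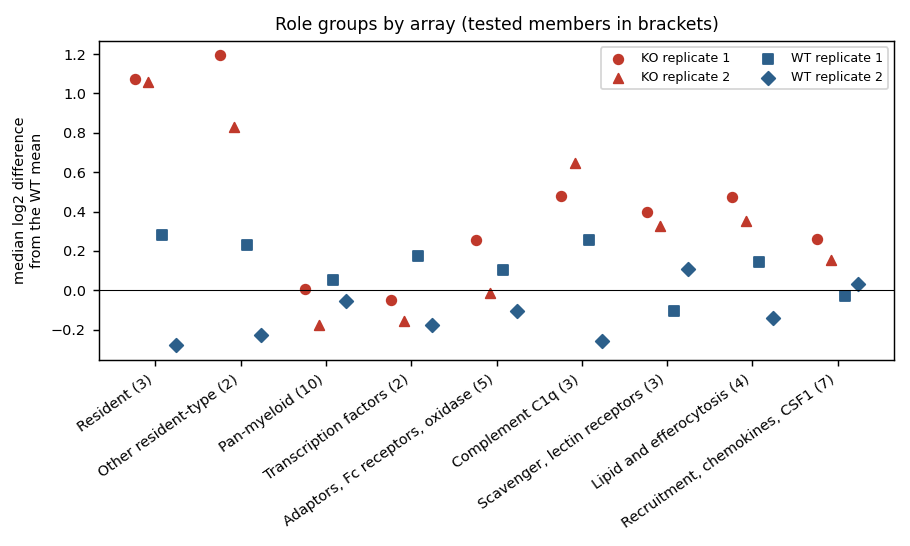
Median log2 difference of each role group from the WT mean, on each of the 4 arrays (red for KO, blue for WT), with the number of tested genes in brackets. Resident genes stand at 1.07 and 1.06 on the KO arrays and at 0.28 and -0.28 on the WT arrays, whereas the 10 pan-myeloid genes stand at 0.01 and -0.18 on the KO arrays and at 0.05 and -0.05 on the WT arrays. The pan-myeloid genes include Cx3cr1, Itgax and Ctss.

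The 3 chains of complement C1q, which macrophages make in most tissues and which tag dying cells for uptake, lay in a narrow range. C1qc had signals of 5251 and 5797 on the KO arrays and 4211 and 2940 on the WT arrays, a log2 difference of 0.65 ± 0.19 (SE) (limma adjusted p = 0.123). C1qa had a difference of 0.54 (adjusted p = 0.174) and C1qb one of 0.52 (adjusted p = 0.160). None passed, all 3 had an unadjusted p below 0.05, and in all 3 both KO arrays were above both WT arrays. The 3 tested probe sets of C1qb gave 0.44 to 0.66. WT replicate 1 was above WT replicate 2 for each chain, by a median of 0.52, about as much as the genotypes differed.

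Among receptors of lectin and scavenger type, 2 of 3 tested members were above 0 and 0 passed in limma (at an unadjusted p below 0.05, 1 higher and 1 lower). Clec10a, the galactose-binding lectin MGL1, had signals of 2674 and 2484 on the KO arrays and 1975 and 1213 on the WT arrays (log2 difference 0.73, SE 0.23, limma adjusted p = 0.149). Msr1, the class A scavenger receptor, had a difference of 0.36 (adjusted p = 0.415).

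Genes of lipid handling and of the uptake of dying cells had a median log2 difference of 0.34, and 0 of 4 passed in limma (2 higher at an unadjusted p below 0.05). Gpnmb, a lysosomal membrane glycoprotein of lipid-loaded macrophages, had signals of 463 and 700 on the KO arrays and 340 and 248 on the WT arrays, a difference of 0.93 ± 0.25 (SE) (limma adjusted p = 0.108). Without KO replicate 1 it rose by 1.22 (adjusted p = 0.0465), and without KO replicate 2 it stood at 0.64 and did not pass (adjusted p = 0.206). Trem2, a lipid receptor usually read with Gpnmb, had 415 and 253 on the KO arrays and 396 and 225 on the WT arrays. Its replicates differed more within each genotype than the genotypes did, at a difference of 0.11 and a 95% interval of -0.67 to 0.89. Mertk, a receptor kinase for dying cells, had a difference of 0.44 (limma adjusted p = 0.167), with both KO arrays above both WT arrays.

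Signalling adaptors, Fc receptors and the oxidase subunit Cybb had a median of 0.16, and 0 of 5 passed in limma (1 higher at an unadjusted p below 0.05). Fcgr3, a low-affinity receptor for antibody, had signals of 1063 and 978 on the KO arrays and 633 and 789 on the WT arrays (log2 difference 0.52, SE 0.17, limma adjusted p = 0.154). Fcgr1, the high-affinity receptor, had a difference of -0.04, and the adaptor genes Tyrobp and Fcer1g had 0.12 and 0.21. Fcer1g is shared with mast cells, of whose 6 tested markers 5 were higher on both KO arrays and Kit was lower. Of 6 tested mast cell markers 1 rose, the carboxypeptidase gene Cpa3 (0.94, limma adjusted p = 0.0383), and their summed signal was 13516 and 13077 on the KO arrays and 10288 and 10528 on the WT arrays. Their part in the Fcer1g signal was not tested.

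Among chemokines and growth factors, 6 of 7 members were above 0 and 0 passed in limma (at an unadjusted p below 0.05, 1 higher and 1 lower). Pf4, the chemokine CXCL4, which resident macrophages share with platelets, had signals of 4001 and 4040 on the KO arrays and 2736 and 2235 on the WT arrays (log2 difference 0.70, SE 0.14, limma adjusted p = 0.0609). It was named after its values were seen. Platelet markers were low, and 1 of 5 on the array was bright enough to be tested. The summed signal of the 5 was 475 and 466 on the KO arrays and 594 and 553 on the WT arrays. Ppbp, a chemokine that platelets store with PF4, stood at 36.8 and 42.3 on the KO arrays and 53.4 and 25.6 on the WT arrays. The part of platelets in the Pf4 signal was not tested.

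Ligands of the myeloid growth factor and chemokine receptors did not pass. Csf1, named after its values were seen, had signals of 1978 and 1732 on the KO arrays and 1749 and 1421 on the WT arrays, a log2 difference of 0.23 with a 95% interval of -0.15 to 0.61 (limma adjusted p = 0.481). Its 4 probe sets gave 0.14 to 0.32. Ccl2, the ligand of Ccr2, was near the limit of brightness, at 152 and 154 on the KO arrays and 94.8 and 162 on the WT arrays, and did not pass (0.27, adjusted p = 0.649). Ccl6 and Ccl9, chemokines of mouse macrophages that bind CCR1, had differences of 0.08 and 0.23. Ccl8 stood at 3383 and 1899 on the KO arrays and 2351 and 2093 on the WT arrays, so the KO arrays enclosed the WT pair.

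In a further list of 17 ligands and recruitment signals on the array, 9 were tested and 0 passed in limma (at an unadjusted p below 0.05, 2 higher and 1 lower). The largest differences were those of Ccl5, a chemokine of T cells and macrophages (-1.19, limma adjusted p = 0.0524), and Ccl11, the eosinophil attractant eotaxin (0.79, adjusted p = 0.0951). Il34, the other ligand of CSF1R, had a log2 difference of -0.09 (limma adjusted p = 0.847), and Cx3cl1, the ligand of CX3CR1, one of -0.26 (adjusted p = 0.601). The last 2 genes were named after their values were seen.

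**Figure D4:**
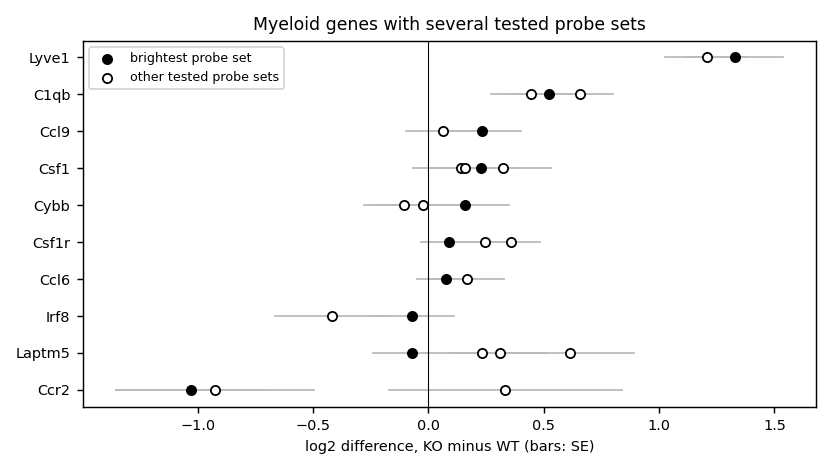
Log2 difference, KO minus WT, with its SE for every tested probe set of the 10 members that had several; filled points are the brightest probe set of a gene, open points the others. Both Lyve1 probe sets lie above 1, at 1.33 and 1.21, and those of Ccr2, Laptm5 and Cybb lie on both sides of 0.

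A list of 50 further macrophage genes that are no members lay within the range of the members. Of 44 on the array, 41 were tested and 0 passed in limma. At an unadjusted p below 0.05, 13 of the 41 were higher and 6 lower, against 10.4% and 10.8% of all tested genes. The median log2 difference was 0.12. The largest was that of Tlr7, a receptor for single-stranded RNA, at 1.03 (limma adjusted p = 0.136), with signals of 230 and 168 on the KO arrays and 118 and 65.3 on the WT arrays. The lowest was that of Cd52, a surface peptide of leukocytes, at -0.91 (adjusted p = 0.0517), with 525 and 413 on the KO arrays and 903 and 880 on the WT arrays. Stab1, a scavenger receptor of resident macrophages and some endothelium, stood at 1850 and 1777 on the KO arrays and 1137 and 1151 on the WT arrays (0.66, limma adjusted p = 0.0570). Ptprc, the CD45 gene of all leukocytes, stood at 1151 and 1072 on the KO arrays and 1790 and 1904 on the WT arrays (-0.73, adjusted p = 0.0507). These last 2 genes were named after their values were seen.

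Among alternative activation genes, which IL-4 and IL-13 induce in mouse macrophages, 1 of 7 tested rose and 0 fell, with a median of 0.43. Arg1, which encodes arginase and is also made outside macrophages, rose to 1176 and 720 on the KO arrays, against 128 and 129 on the WT arrays (log2 difference 2.69, limma adjusted p = 0.0124). Of 9 inflammatory activation genes on the array, Irf5 was tested and did not pass (-0.14, limma adjusted p = 0.701), and Il1b, Tnf, Nos2, Il6, Il12b, Ptgs2, Cxcl10 and Cd40 were below the limit of brightness.

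Other tissue components also differed between the arrays, as the plot of marker lists by array shows. Skeletal muscle markers, of which 5 of 9 tested rose (Myh4, Tnnc2, Myh1, Pvalb and Tnni2) and 0 fell, summed to 10026 and 5993 on the KO arrays and to 1475 and 445 on the WT arrays. The 5 log2 differences ran from 2.34 for Pvalb to 3.75 for Tnni2 (limma adjusted p = 0.0138 for Myh4 to 0.0472 for Tnni2). Lyve1, Cd163, Folr2, Timd4 and Mrc1 kept that same order of the 4 arrays, with KO replicate 1 highest and WT replicate 2 lowest. Members of other roles, Cd68, Clec10a, Mertk and Fcer1g, kept it too, and how many of all tested genes did so was not counted. Macrophages of muscle were not separated from those of the gland, and the part of muscle in these values was not tested. Epithelial markers, of which 1 of 14 rose (Krt7, 1.02, limma adjusted p = 0.0484) and 1 fell (Ehf, -1.78, adjusted p = 0.0435), summed to 31566 and 51411 on the KO arrays and to 45948 and 47960 on the WT arrays. The epithelial sum lay below both WT arrays on KO replicate 1 and above both on KO replicate 2. Set against the WT mean on those 2 arrays, the median of the resident genes was 1.07 and 1.06, and Mrc1 stood at 0.71 and 0.43. The part of epithelium in these values was not tested.

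Adipocyte markers summed to 83307 and 85831 on the KO arrays and 82950 and 76690 on the WT arrays, and 0 of 6 passed in limma (0 at an unadjusted p below 0.05), with the largest differences for the hormone gene Lep (-0.76, adjusted p = 0.600) and the lipid droplet gene Cidec (0.28, adjusted p = 0.311). Fibroblast markers summed to 114853 and 116306 on the KO arrays and 117130 and 104025 on the WT arrays, and 0 of 8 passed (2 higher at an unadjusted p below 0.05, Pi16 at 0.88 and Pdgfra at 0.30, limma adjusted p = 0.102 and 0.239). Blood endothelial markers summed to 7429 and 5905 on the KO arrays and 6318 and 6424 on the WT arrays, and 0 of 5 passed (0 at an unadjusted p below 0.05). The resident members summed to 10462 and 9515 on the KO arrays and 6131 and 4826 on the WT arrays, or 191% and 174% of the WT mean on the KO arrays.

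**Figure D5:**
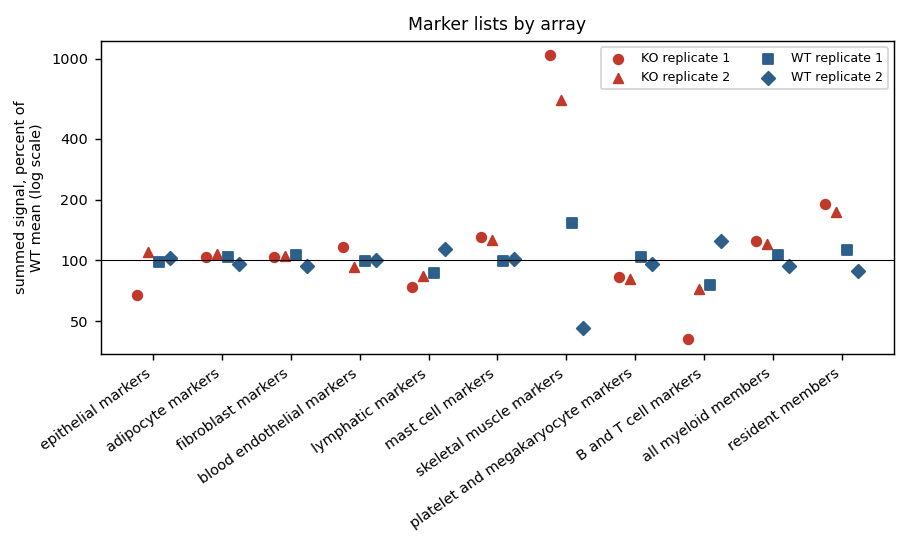
Summed signal of each marker list on each array, as a percentage of its mean over the 2 WT arrays, on a log axis (red for KO, blue for WT). Skeletal muscle markers stand at 1045% and 624% and resident genes at 191% and 174% on the KO arrays, while adipocyte and fibroblast markers lie between 94.1% and 108% on all 4 arrays.

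Promoters are shown for the members of ranks 2 to 5 by log2 difference and for the resident gene Mrc1. Those of the 2 lowest members, Cx3cr1 and Ccr2, are shown as well. Sequences of members with positive and negative log2 differences thus stand side by side, and none of the genes shown passed. Lyve1, of rank 1, is named only. Stretches of 250 bases before the annotated start were taken from RefSeq (build GRCm38.p6), where 31 of 40 members matched by symbol, the first start being used where a gene had several. Both strands were searched for the STAT motif TTCNNNGAA, the PU.1 motif GAGGAAG and the core of the composite motif of ETS and IRF factors, GGAANNGAA, which can overlap the PU.1 motif through the letters GGAA. The PU.1 motif was in 10 of 31 member promoters and in 10.4% of 27025 promoters, the composite core in 7 of 31 and 7.03%, and the STAT motif in 2 of 31 and 7.18%. The motifs were chosen after the members' values were seen. Capitals mark each match.
Mrc1 (chr2:14229164-14229413, plus strand): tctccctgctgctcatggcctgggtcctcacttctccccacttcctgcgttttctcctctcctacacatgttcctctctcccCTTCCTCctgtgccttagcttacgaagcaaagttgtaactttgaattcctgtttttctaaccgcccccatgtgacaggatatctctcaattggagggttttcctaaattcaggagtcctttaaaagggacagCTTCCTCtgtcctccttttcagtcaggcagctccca
Cd163 (chr6:124304401-124304650, plus strand): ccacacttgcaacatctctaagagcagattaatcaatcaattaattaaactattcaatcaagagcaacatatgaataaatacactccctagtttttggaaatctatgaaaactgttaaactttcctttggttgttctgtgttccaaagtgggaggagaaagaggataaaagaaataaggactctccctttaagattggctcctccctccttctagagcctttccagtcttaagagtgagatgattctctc
Timd4 (chr11:46810549-46810798, plus strand): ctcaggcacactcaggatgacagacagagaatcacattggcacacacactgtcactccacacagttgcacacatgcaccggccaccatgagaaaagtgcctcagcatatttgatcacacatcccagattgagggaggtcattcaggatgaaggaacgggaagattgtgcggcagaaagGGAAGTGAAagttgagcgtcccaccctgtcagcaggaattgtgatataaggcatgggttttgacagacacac
Folr2 (chr7:101857191-101857440, minus strand): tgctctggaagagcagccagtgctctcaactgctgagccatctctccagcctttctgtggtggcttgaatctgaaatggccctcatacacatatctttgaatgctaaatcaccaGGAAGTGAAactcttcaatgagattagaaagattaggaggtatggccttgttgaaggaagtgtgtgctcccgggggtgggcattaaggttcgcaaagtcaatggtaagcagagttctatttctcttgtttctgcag
Gpnmb (chr6:49036268-49036517, plus strand): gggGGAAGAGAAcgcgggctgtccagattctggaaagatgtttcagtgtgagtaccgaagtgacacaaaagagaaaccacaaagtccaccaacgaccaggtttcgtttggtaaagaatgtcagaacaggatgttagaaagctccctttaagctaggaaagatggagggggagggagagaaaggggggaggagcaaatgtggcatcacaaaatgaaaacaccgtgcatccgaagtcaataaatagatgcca
Cx3cr1 (chr9:120068297-120068546, minus strand): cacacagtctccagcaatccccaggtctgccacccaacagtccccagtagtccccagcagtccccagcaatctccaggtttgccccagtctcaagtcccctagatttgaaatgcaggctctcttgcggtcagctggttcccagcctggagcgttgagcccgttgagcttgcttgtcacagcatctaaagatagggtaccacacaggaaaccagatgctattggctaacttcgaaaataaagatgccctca
Ccr2 (chr9:124101933-124102182, plus strand): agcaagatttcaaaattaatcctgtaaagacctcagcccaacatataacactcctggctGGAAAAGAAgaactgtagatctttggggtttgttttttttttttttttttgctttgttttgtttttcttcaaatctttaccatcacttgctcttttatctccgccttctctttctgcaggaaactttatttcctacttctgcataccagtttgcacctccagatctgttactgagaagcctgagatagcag

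The Mrc1 stretch held the PU.1 motif at 2 places, 168 to 162 and 36 to 30 bases before the start, both on the opposite strand. The Timd4 stretch held the composite core as GGAAGTGAA, 72 to 64 bases before the start, and the Folr2 stretch held the same letters 136 to 128 bases before it. The Gpnmb stretch held it as GGAAGAGAA, 247 to 239 bases before the start, and the Ccr2 stretch held it as GGAAAAGAA, 191 to 183 bases before the start. No match was found in the Cd163 and Cx3cr1 stretches, and the STAT matches were in Irf8 and Fcgr1, which did not pass. A match describes letters and is not a bound site.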

How the data were processed

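RNA from mammary tissue was measured on 4 Affymetrix arrays, 2 KO and 2 WT, grouped by the genotype in the labels and numbered in accession order, which pairs no mice. The authors deposited linear intensities per probe set, which the submitters' processing notes credit to MAS5 (version and settings not given in the sources used here). The mean signal, trimmed by 2% of probe sets at each end, was 500.002 on every array, and array medians ran from 121 to 131. Detection calls were not used here, and precision is limited by having few arrays.

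The 64 control probe sets were left out. Of the other 45037, 34945 had 1 symbol in the platform annotation, which can be old, 932 had several and 9160 are unnamed here. No symbol changed through the 34741 Entrez matches. Genes with several symbols per probe set were not named, and 19 listed marker genes had no probe set of their own.

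Probe sets with a mean log2(signal + 16) at or above the median of 7.15 were tested with limma 3.58.1 in R 4.3.3 (lmFit, eBayes with trend, Benjamini-Hochberg), with 2 residual degrees of freedom. The fit was tested on simulated data. P-values measure the spread between these samples, where eBayes drew the variance of each probe set towards a trend over all tested probe sets. The members and lists were chosen with earlier results of these data known, and no list was tested as a set. Lists covered roles of the members, further macrophage genes, ligands, activation states and markers of other cells. Lymphatic and mast cell markers were summed apart from the blood endothelial and eosinophil markers listed with them after values were seen. Array values are given for members that passed, the resident genes and the most different gene of each role. From each other list up to 4 genes that passed with the smallest p are named, or up to 2 with the largest difference. Members given outside this rule are said to be, or are named to complete a role. Alternatives were pseudocounts of 1 and 64, quantile normalization, centring on the median or on epithelial markers, no filter, a filter at the 75th percentile, no trend, the mean of a gene's probe sets, and leaving out each array.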

Additional observations from a re-analysis of the deposited data

How the results depend on the processing

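The direction of the gap between resident and other members held in all 13 alternatives. Centring on the median or on epithelial markers and leaving out the variance trend cannot change this gap, and it stayed at 0.89. Over the alternatives the gap ranged from 0.68 without WT replicate 2 to 1.12 without WT replicate 1. Of 485 alternative values of single members, 443 kept their direction and side of the threshold, 11 gained a call, 4 lost one and 27 changed sign, the last all among members that never passed. The number of members that rose was 2 with a pseudocount of 64 (Cd163 and Lyve1), 3 with median centring (Cd163, Lyve1 and Pf4), and 0 centred on epithelial markers, with no filter and with no variance trend. With an array left out, 0 (without WT replicate 2) to 3 (without KO replicate 2 or WT replicate 1) members rose and 0 to 2 (without KO replicate 1) fell. A genotype left with a lone array is assumed to vary like the other genotype. The cause of these moves was not tested.

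Over all genes, 292 passed, against 98 centred on epithelial markers, 27 with no filter, 127 with the 75th percentile filter, 137 with no variance trend, 174 with probe sets of a gene averaged, 43 without WT replicate 2, 100 without WT replicate 1 and 601 without KO replicate 2. Calls upward in KO made up 47.3%, against 61.7% with median centring and 73.5% centred on epithelial markers, which placed the median of all genes at 0.07 and 0.29. The median of the members was then 0.50 in the epithelial setting. With the 75th percentile filter, 25 members were tested and 14 did not overlap between genotypes, against 22 of 39. Among all tested genes, both KO arrays lay above both WT arrays for 26.2% and below them for 27.5%. The 22 of 39 are thus close to the background, and the share of all genes was not counted for the 75th percentile filter.

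Signs turned for members near 0. With median centring Laptm5 was 0.0093, Irf8 0.011 and Fcgr1 0.041. Centred on epithelial markers Laptm5 was 0.23, Lyz2 0.15, Spi1 0.16, Irf8 0.23 and Fcgr1 0.26. Fcgr1 was 0.034 after quantile normalization and Laptm5 0.24 with the mean of its probe sets. With an array left out the range was -0.050 to 0.22 for Adgre1, -0.15 to 0.23 for Itgam, -0.25 to 0.11 for Laptm5, -0.43 to 0.15 for Spi1, -0.22 to 0.079 for Irf8, -0.015 to 0.25 for Tyrobp and -0.18 to 0.093 for Fcgr1. It was -0.026 to 0.34 for Cybb, -0.28 to 0.50 for Trem2, -0.072 to 0.61 for Ccl2, -0.00064 to 0.15 for Ccl6 and -0.22 to 0.61 for Ccl8. No paired analysis was possible because the labels give the genotypes no shared replicate numbers. Depth does not apply to arrays, and without detection calls the limits of dim genes such as Cx3cr1, Msr1 and Ccl2 are unknown.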

Other observations

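Other myeloid cells gave few bright signals. Of 9 dendritic cell markers on the array, 5 were tested and 0 passed in limma (at an unadjusted p below 0.05, 1 higher and 1 lower), with a median log2 difference of -0.23. Cd209a, a lectin of monocyte-derived dendritic cells, had signals of 688 and 452 on the KO arrays and 261 and 254 on the WT arrays (1.07, limma adjusted p = 0.0635). Batf3, a transcription factor needed for cross-presenting dendritic cells, stood at 157 and 152 on the KO arrays and 280 and 299 on the WT arrays (-0.84, limma adjusted p = 0.0689). The genotypes did not overlap in either gene, and the directions were opposite.

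Neutrophil markers were too dim to test, apart from Ltf, which epithelium also makes and which rose (3.73, limma adjusted p = 0.000313). The other 8 on the array, S100a8 and S100a9 among them, summed to 411 and 564 on the KO arrays and 387 and 387 on the WT arrays. The 4 eosinophil and basophil markers were all below the limit and summed to 139 and 56.7 on the KO arrays and 203 and 223 on the WT arrays. Of the red cell markers, Alas2 alone was tested and did not pass (0.43, limma adjusted p = 0.465). Of the platelet markers, Itga2b alone was tested and did not pass (-0.12, adjusted p = 0.729).

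Kit, the receptor of stem cell factor on mast cells and on luminal progenitors, stood at 2356 and 2546 on the KO arrays and 3314 and 3838 on the WT arrays (-0.54, limma adjusted p = 0.0934). The other 5 tested mast cell markers were all higher on both KO arrays, from 0.50 for Mcpt4 to 0.94 for Cpa3. Kit and Mcpt4 were named after their values were seen.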
